A study of Mus musculus with 24 samples.

Results

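Messenger RNA of 10 genes of sterol export and HDL handling was followed in mouse liver: Nr1h3, Abca1, Abcg1, Abcg5, Abcg8, Scarb1, Lcat, Lipc, Pltp and Soat2. They were taken by name from the 14995 genes in the deposited tables, and all 10 passed the filter on low counts that left 13121 genes for testing. The libraries came from 3 groups of 8 livers, all collected 20 weeks after surgery from mice that the title of the study calls obese. RYGB mice had Roux-en-Y gastric bypass, an operation that joins a small stomach pouch to a lower stretch of the small intestine. WM mice were matched to RYGB mice in weight through calorie restriction, and Sham mice had a sham operation. The sources used here do not give the strain, sex, age or diet of any group, or say whether WM mice also had a sham operation. The labels number the livers but do not say that each came from a separate mouse, so p-values measure the spread between these samples.

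The liver removes sterol by secreting it into bile and by loading it onto apolipoprotein A-I, which forms HDL. Nr1h3 encodes LXRα, a nuclear receptor that is activated by oxysterols and that switches on transporter genes such as Abca1, Abcg1, Abcg5 and Abcg8. ABCA1 passes cholesterol and phospholipid to lipid-poor apolipoprotein A-I, ABCG1 passes cholesterol to mature HDL, and ABCG5 and ABCG8 join into a single transporter at the canalicular membrane that moves sterols into bile. In plasma, LCAT esterifies the cholesterol of HDL, PLTP transfers phospholipid between lipoproteins, and hepatic lipase, the product of Lipc, hydrolyses lipids of HDL and of remnant particles. SR-BI, the product of Scarb1, takes cholesteryl ester from HDL into hepatocytes, and Soat2 encodes ACAT2, which esterifies cholesterol inside the cell.

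Abcg5 and Abcg8 lie head to head on chromosome 17 and are shown first because Abcg5 was the 1 member called between RYGB and WM livers. In RefSeq on GRCm38.p6, the start of Abcg5 on the minus strand lies at 84683011 and that of Abcg8 on the plus strand at 84683121, with 109 bases between them. The window of the Abcg8 start, chr17:84682871-84683170 on the plus strand, therefore also holds the start of Abcg5, at base 141 of the sequence counted from its 5′ end. It is 1 of 2 windows listed for Abcg8. Capitals mark GATAA on either strand, the core of the site bound by GATA factors.
Abcg8: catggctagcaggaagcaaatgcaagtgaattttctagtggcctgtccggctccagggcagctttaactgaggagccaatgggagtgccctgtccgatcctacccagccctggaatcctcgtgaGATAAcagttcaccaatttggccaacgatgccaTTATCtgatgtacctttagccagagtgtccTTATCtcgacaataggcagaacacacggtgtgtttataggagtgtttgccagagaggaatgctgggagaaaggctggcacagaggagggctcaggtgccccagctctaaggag
The window held 3 such matches, 2 of them between the starts. GATAA was found in 25.4% of 32851 mouse promoter windows of the same length, and 0.938% of them had at least as many matches. The Abcg8 window also held 1 match to the forkhead core TAAACA, 1 to the TATA box TATAAA and 2 to CCAAT, left in lower case. Of all windows, 13.4%, 13.6% and 37.4% hold these at least once. RefSeq windows were found for 7 of the 10 genes, 10 windows in all. The LXR element, written as a direct repeat of AGGTCA with any 4 bases between the copies, was found in 0 of these 10 windows on either strand, and in 0.0152% of all windows. A match is a description of letters and not a shown binding site, and the absence of these letters from the windows says nothing about LXRα binding.

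The window shown of Nr1h3, the 1 member whose RYGB livers all lay above the Sham livers, is chr2:91195067-91195366 on the minus strand, 1 of 2 listed for the gene.
Nr1h3: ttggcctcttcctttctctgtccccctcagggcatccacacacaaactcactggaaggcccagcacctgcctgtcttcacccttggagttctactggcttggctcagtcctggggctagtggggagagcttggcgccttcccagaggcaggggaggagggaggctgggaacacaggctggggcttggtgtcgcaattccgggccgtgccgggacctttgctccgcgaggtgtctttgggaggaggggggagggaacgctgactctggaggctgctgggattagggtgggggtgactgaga
It held none of the 8 motifs searched on both strands. These were the LXR element, its single repeat AGGTCA, the GATA core GATAA, the forkhead core TAAACA, the TATA box TATAAA, the HNF4 site CAAAGTCCA, the CCAAT box and the HNF1 site, an inverted repeat of GTTAAT around 1 base. Lipc, the other member that rose in both RYGB and WM livers, has 2 listed windows. The one shown is chr9:70952172-70952471 on the minus strand, with CCAAT on either strand in capitals.
Lipc: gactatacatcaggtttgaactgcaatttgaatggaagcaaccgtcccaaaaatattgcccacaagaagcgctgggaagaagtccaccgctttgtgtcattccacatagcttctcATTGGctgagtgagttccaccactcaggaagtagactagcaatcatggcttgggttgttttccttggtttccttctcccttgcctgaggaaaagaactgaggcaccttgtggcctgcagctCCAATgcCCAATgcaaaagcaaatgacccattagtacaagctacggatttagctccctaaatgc
CCAAT was found 3 times there, and 37.4% of all windows hold it at least once. The Lipc window not shown, chr9:70934759-70935058 on the minus strand, held 2 matches to AGGTCA, 2 to GATAA and 1 to CCAAT. It was the 1 window of the 10 with AGGTCA, which 16.3% of all windows hold.

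Libraries held 13659647 to 22766612 counts, a depth that left Abcg1 as the thinnest member at 16 to 210 counts a library. Counts came from the 3′ ends of transcripts, and levels are given as CPM scaled by TMM, the library's counts taken relative to its scaled total. Levels are not compared between genes here. Transcripts of pancreatic acinar cells were found in RYGB 18, RYGB 19 and Sham 17, where 14 acinar markers summed to 2780, 2938 and 1256 CPM, and the groups also differed outside these libraries. The other RYGB libraries were at 30.9 to 60.2 CPM, the WM libraries at 71.3 to 188 CPM and the other Sham libraries at 10.6 to 17.3 CPM, with no overlap. Cela1, the 1 acinar marker tested, was called higher in both RYGB and WM against Sham (log2 fold changes 2.08 ± 0.55 and 2.29 ± 0.56, edgeR). In WM livers it averaged 122 CPM, where the 14 markers together averaged 123 CPM, so the WM sums were nearly all Cela1. The other 13 markers were each at 0 in at least 1 library. WM 25 stood apart by GC content. There, the level of a gene relative to its mean over all libraries was 0.956 log2 units higher for each 10 points of transcript GC content. The next largest positive slopes were 0.492 in RYGB 18 and 0.387 in RYGB 19. The slope on transcript length, in log2 units of level for each log2 unit of length, separated Sham from both other groups. It was -0.180 to 0.00809 in RYGB, -0.186 to 0.0176 in WM and 0.0730 to 0.215 in Sham libraries, so it moved with every call against Sham.

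The 7 hepatocyte markers present had no library at 0 and summed to 72643 to 131258 CPM in RYGB, 62377 to 116778 CPM in WM and 30692 to 67033 CPM in Sham livers, with 5 called higher in RYGB and 6 in WM against Sham. Kupffer cell markers summed to 225 to 877 CPM in RYGB, 270 to 736 CPM in WM and 74.0 to 341 CPM in Sham livers, with 9 of 10 called higher in RYGB and 8 of 10 in WM against Sham and no gene of that list at 0 in any library. Markers of recruited macrophages summed to 51.3 to 84.9 CPM in RYGB, 39.5 to 72.4 CPM in WM and 69.3 to 275 CPM in Sham livers, with Trem2, Gpnmb, Itgax, Ccr2 and Mmp12 at 0 in at least 1 library. Of 9 tested, 1 was called higher and 5 lower in RYGB, and 0 higher and 6 lower in WM against Sham. Stellate cell markers summed to 254 to 359 CPM in RYGB, 217 to 350.1 CPM in WM and 354 to 753 CPM in Sham livers, with 4 of 9 called lower in RYGB and 5 of 9 in WM against Sham. Cholangiocyte markers summed to 31.7 to 50.6 CPM in RYGB, 21.3 to 37.3 CPM in WM and 44.8 to 101 CPM in Sham livers, with 1 of 5 called lower in RYGB and 2 of 5 in WM against Sham and Krt7, Krt19 and Epcam at 0 in at least 1 library. WM and Sham livers did not overlap in the sums of either list. The cholangiocyte markers called lower were Spp1 in both groups and Sox9 in WM. Spp1 is also on the recruited macrophage list. In Sham livers Spp1 and Sox9 averaged 40.2 and 25.6 CPM, of a mean cholangiocyte sum of 68.1 CPM. Krt7, Krt19 and Epcam had positive log2 fold changes in RYGB against Sham, as had Krt7 and Krt19 in WM, none of them called. Lymphocyte markers summed to 4.54 to 13.2 CPM in RYGB, 3.43 to 37.9 CPM in WM and 3.84 to 7.34 CPM in Sham livers, with 2 of 5 called higher in both against Sham. Enterocyte markers, a list that holds the liver genes Apoa4 and Dgat2, summed to 500.2 to 812 CPM in RYGB, 734 to 1220.3 CPM in WM and 2117 to 5263 CPM in Sham livers. Apoa4 alone averaged 3007 CPM in Sham livers, of a mean sum of 3455 CPM. Of 4 tested, 0 rose and 1 fell (Apoa4) in RYGB against Sham. In WM against Sham 1 rose (Dgat2) and 1 fell (Apoa4). In bulk liver, fewer cells of a type and less RNA per cell cannot be told apart, and the part of these shifts in the results that follow was not tested.

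Against Sham livers, 2 of the 10 genes rose and 0 fell in RYGB livers, and 5 rose and 0 fell in WM livers. RYGB livers had more Nr1h3 and Lipc, and WM livers had more Nr1h3, Abcg5, Abcg8, Lipc and Soat2 (edgeR quasi-likelihood test, adjusted p under 0.05 over all genes). Over all genes tested, 12.7% were called higher and 11% lower in RYGB against Sham, 23.7% in all. In WM against Sham 16.5% were called higher and 15% lower, 31.4% in all. The median log2 fold change of the 10 genes was 0.26 in RYGB against Sham, beside -0.01 over all genes, and 0.43 in WM against Sham, beside -0.01 over all genes. These comparisons use the same Sham libraries. Set directly against WM livers, RYGB livers had 0 of the 10 genes higher and 1 lower, Abcg5, while 1.06% of all genes were called higher and 0.434% lower, 1.49% in all. The median log2 fold change of the 10 genes was 0.12 there, beside -0.02 over all genes. Groups that did not overlap at all were found for 1 member, Nr1h3, with RYGB above Sham. Of all genes, 3.28% lay wholly above and 2.1% wholly below in RYGB against Sham, 3.15% above and 2.68% below in WM against Sham, and 0.282% above and 0.0762% below in RYGB against WM.

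**Figure D1:**
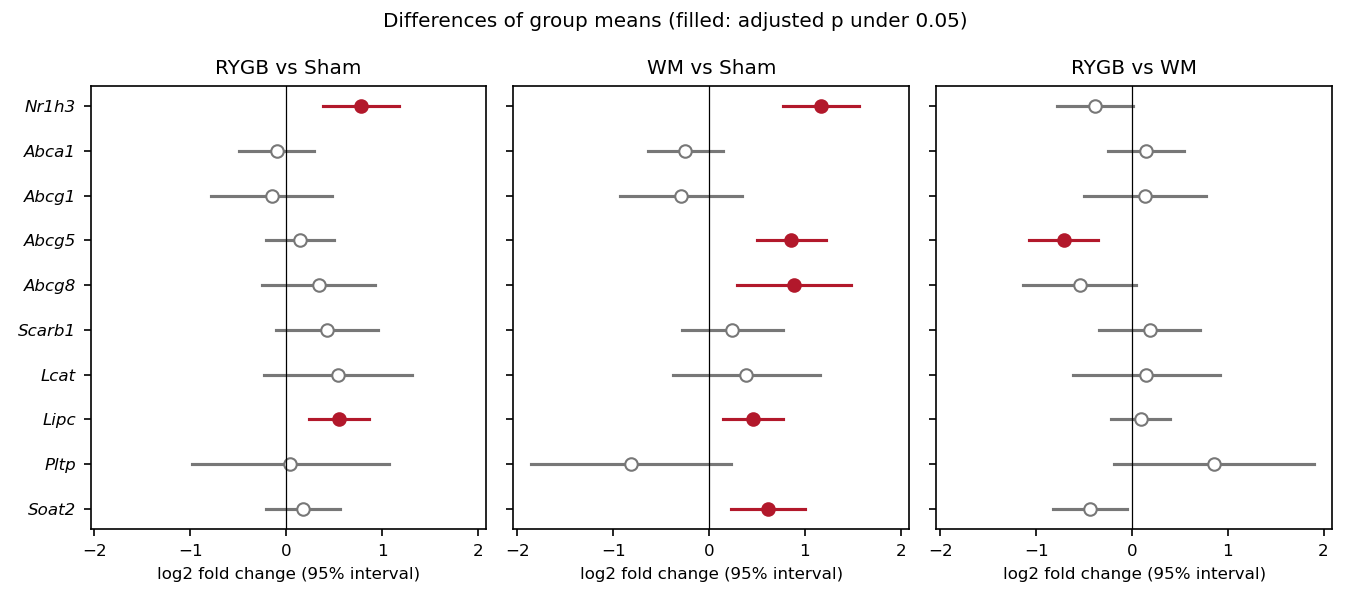
Log2 fold change of each of the 10 genes in RYGB against Sham, WM against Sham and RYGB against WM, with bars of the 95% interval from the edgeR fit to all 24 libraries and filled points for an adjusted p under 0.05. Nr1h3 and Lipc are filled in both comparisons with Sham, and Abcg5 is the only filled point in RYGB against WM, at -0.71.

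Nr1h3, the LXRα gene, ran from 97.8 to 154 CPM in RYGB livers with a median of 119 CPM. It ran from 72.7 to 243 CPM in WM livers with a median of 154 CPM, and from 51.2 to 92.8 CPM in Sham livers with a median of 69.7 CPM. The lowest RYGB liver lay above the highest Sham liver, whereas WM and Sham livers overlapped. Nr1h3 rose by a log2 fold change of 0.78 ± 0.19 in RYGB against Sham (adjusted p = 0.00392, edgeR) and by 1.17 ± 0.20 in WM against Sham (adjusted p = 4.6e-05, edgeR). The RYGB and WM ranges overlapped, and the log2 fold change of -0.39 ± 0.19 between them did not pass (adjusted p = 0.466, edgeR; 95% interval -0.78 to 0.01).

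Abca1, the exporter that starts an HDL particle, ran from 34.5 to 69.9 CPM in RYGB livers (median 54.3), from 32.4 to 82.7 CPM in WM livers (median 39.4) and from 39.3 to 75.5 CPM in Sham livers (median 53.9). The groups overlapped throughout, and neither the difference of RYGB from Sham, -0.10 ± 0.19 on the log2 scale, nor that of WM from Sham, -0.25 ± 0.19, passed (adjusted p = 0.751 and 0.344, edgeR). The 95% intervals of these log2 differences were -0.49 to 0.29 and -0.64 to 0.15. Abcg1, which hands cholesterol to formed HDL, had medians of 2.88 CPM in RYGB, 3.56 CPM in WM and 3.74 CPM in Sham livers, and its groups also overlapped. Its log2 differences, -0.15 ± 0.31 in RYGB against Sham and -0.29 ± 0.31 in WM against Sham, did not pass (adjusted p = 0.770 and 0.507, edgeR). Between RYGB and WM livers the log2 differences were 0.15 ± 0.19 for Abca1 and 0.14 ± 0.31 for Abcg1, and neither passed.

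**Figure D2:**
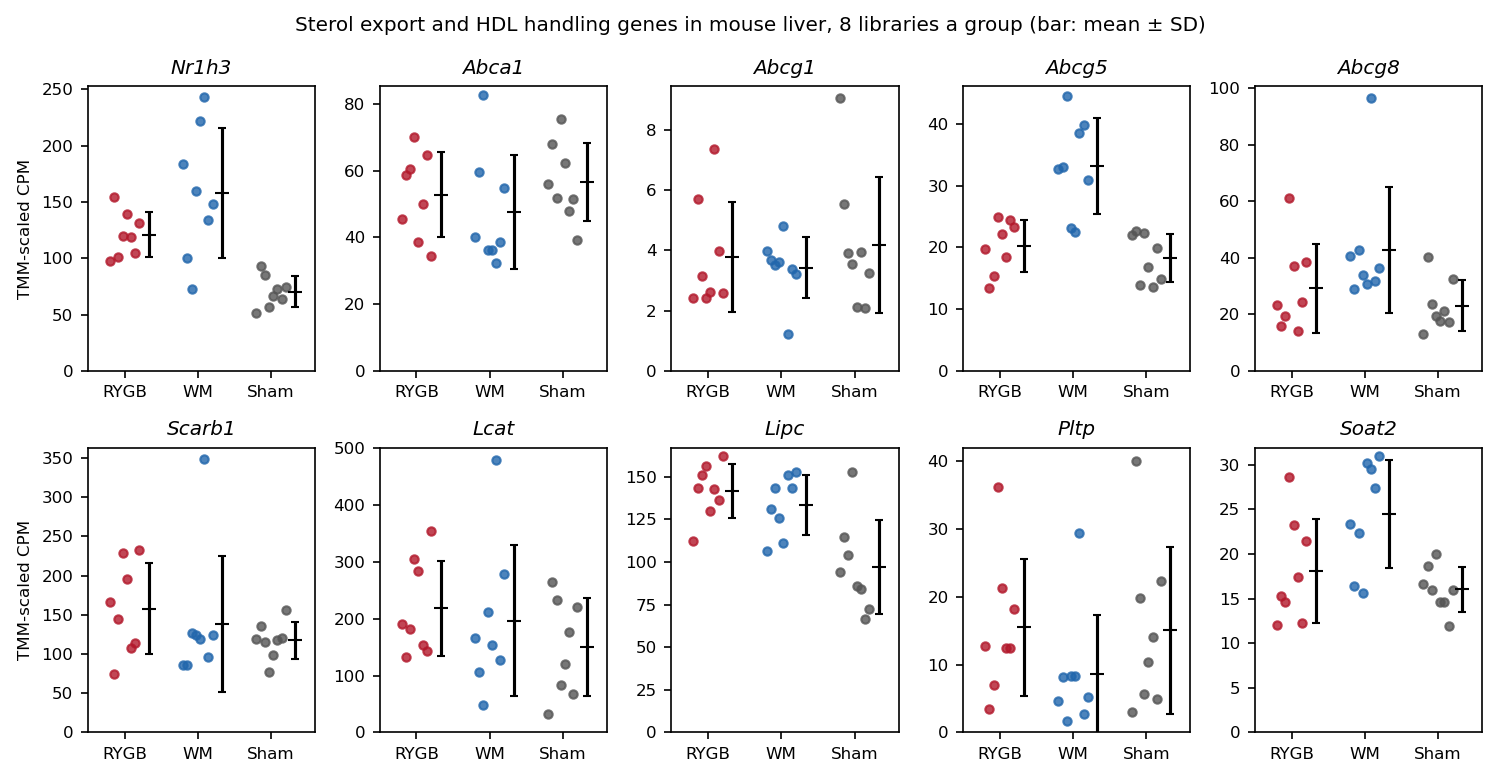
Level of each of the 10 genes in CPM, 1 panel a gene, with a point for each library, and the mean and SD of the 8 libraries in RYGB, WM and Sham livers. Nr1h3 in RYGB livers lies wholly above Sham, Abcg5 has its highest mean in WM livers, and Lcat and Pltp are spread widely within each group (the SD bar of Pltp in WM livers is clipped at 0).

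Abcg5, which encodes a subunit of the biliary sterol exporter, ran from 13.4 to 24.9 CPM in RYGB livers with a median of 21.0 CPM. It ran from 22.5 to 44.6 CPM in WM livers (median 32.8) and from 13.6 to 22.6 CPM in Sham livers (median 18.4). All 8 WM livers lay above the Sham median and all 8 RYGB livers lay below the WM median, while RYGB and Sham livers covered much the same range. Abcg5 rose by 0.86 ± 0.18 on the log2 scale in WM against Sham (adjusted p = 0.000435, edgeR). The difference of RYGB from Sham, 0.15 ± 0.17, did not pass (adjusted p = 0.582, edgeR; 95% interval -0.21 to 0.50). In RYGB against WM livers it fell by 0.71 ± 0.17 on the log2 scale (adjusted p = 0.0285, edgeR; 95% interval -1.07 to -0.36). This last call was lost when only RYGB and WM libraries were fitted, with the log2 difference at -0.72 (adjusted p = 0.0629, edgeR). It was also lost when any 1 of WM 9, WM 27, RYGB 10, RYGB 11, RYGB 15 and RYGB 22 was left out, with log2 differences of -0.71 to -0.64 and adjusted p of 0.0557 to 0.0732.

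Abcg8, the partner of Abcg5, ran from 14.2 to 61.1 CPM in RYGB livers (median 23.8), from 28.8 to 96.5 CPM in WM livers (median 35.1) and from 13.0 to 40.2 CPM in Sham livers (median 20.3). The highest value was that of WM 25, the next WM liver was at 42.7 CPM, and the groups overlapped. Abcg8 rose by 0.89 ± 0.29 on the log2 scale in WM against Sham (adjusted p = 0.0197, edgeR). The differences of RYGB from Sham, 0.34 ± 0.29, and of RYGB from WM, -0.55 ± 0.29, did not pass (adjusted p = 0.412 and 0.498, edgeR). The 95% interval of the difference of RYGB from WM, -1.14 to 0.04, holds the value of Abcg5. Without WM 25 the difference of WM from Sham was 0.60 and was not called (adjusted p = 0.0761, edgeR), and with library totals in place of TMM it was 0.56 (adjusted p = 0.0861, edgeR).

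The log2 ratio of Abcg5 to Abcg8 within a library, with 1 CPM added to each, was -0.39 ± 0.50 in RYGB, -0.28 ± 0.51 in WM and -0.27 ± 0.62 in Sham livers (SD, n = 8 each). The differences of -0.12 for RYGB from Sham, -0.01 for WM from Sham and -0.11 for RYGB from WM were smaller than the spread between livers (two-sided exact permutation tests, adjusted p = 0.970 for each). Across the 8 livers of a group, Abcg5 and Abcg8 had a Pearson r of 0.758 in RYGB, 0.416 in WM and -0.153 in Sham livers. The Spearman rho were 0.857, 0.405 and -0.0952 in the same order of groups. Of the 15 within-group relations computed over 5 pairs of members, that in RYGB livers did not pass adjustment (exact permutation, p = 0.0294 for r and 0.0107 for rho, adjusted p = 0.221 and 0.115), and r was 0.791 without the 2 livers farthest from the median of Abcg5.

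**Figure D3:**
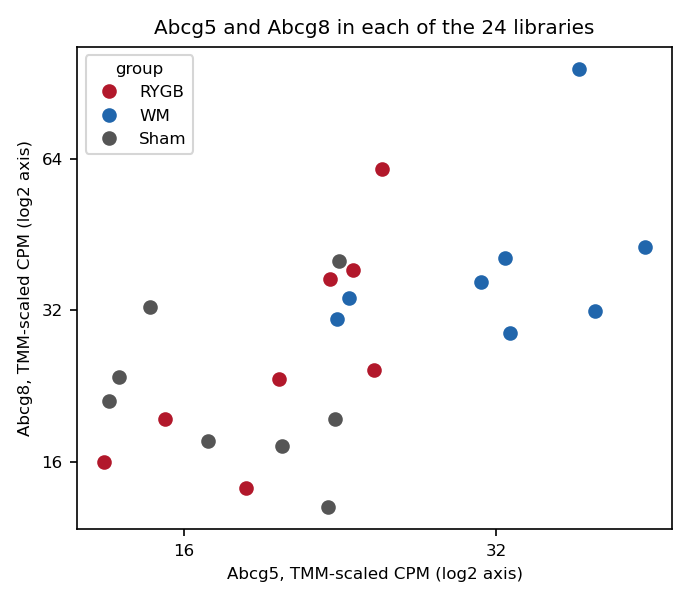
Abcg8 against Abcg5 in CPM on log2 axes, with a point for each library and the groups RYGB, WM and Sham in separate colours. Most WM livers lie farther to the right than any RYGB or Sham liver, and WM 25 lies alone at 96.5 CPM of Abcg8.

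Another pair of the 15, Abca1 and Nr1h3 in WM livers, had a Pearson r of -0.904 over 8 livers (exact permutation, p = 0.00198, adjusted p = 0.0298). Its Spearman rho of -0.833 did not pass adjustment (exact permutation, p = 0.0154, adjusted p = 0.115), and r was -0.594 without the 2 livers farthest from the median of Abca1. In RYGB and Sham livers r was -0.275 and -0.166 for the same pair, with rho of -0.238 and -0.190 (exact permutation, adjusted p = 0.817 for each r and 0.868 for each rho). After correction of each library for GC content and length, r in WM livers was -0.81 (exact permutation, adjusted p = 0.218). The call therefore held neither under that correction nor in ranks.

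Scarb1, the HDL receptor, ran from 74.1 to 232 CPM in RYGB livers (median 155), from 85.5 to 349 CPM in WM livers (median 121) and from 76.6 to 156 CPM in Sham livers (median 119). The groups overlapped, and the highest WM value, again in WM 25, lay far above the next, 126 CPM. The log2 differences of 0.43 ± 0.26 in RYGB against Sham, 0.24 ± 0.26 in WM against Sham and 0.19 ± 0.26 in RYGB against WM did not pass (adjusted p = 0.240, 0.508 and 0.889, edgeR). Without WM 25 the difference of WM from Sham changed sign, to -0.11.

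Lipc, the hepatic lipase gene, ran from 112.5 to 162 CPM in RYGB livers (median 143), from 107 to 153 CPM in WM livers (median 137) and from 66.6 to 153 CPM in Sham livers (median 89.8). All 8 RYGB and all 8 WM livers lay above the Sham median, but the highest Sham liver reached into both groups. Lipc rose by 0.55 ± 0.15 on the log2 scale in RYGB against Sham (adjusted p = 0.00906, edgeR) and by 0.46 ± 0.15 in WM against Sham (adjusted p = 0.0217, edgeR). RYGB differed from WM by 0.09 ± 0.15 (adjusted p = 0.915, edgeR; 95% interval -0.22 to 0.40). Neither call held with library totals, where the log2 differences were 0.23 and 0.17 (adjusted p = 0.251 and 0.397, edgeR). That setting moved the median of all genes to -0.36 in RYGB against Sham and -0.33 in WM against Sham. With correction for GC content and length they were 0.37 and 0.26 (adjusted p = 0.0723 and 0.197, edgeR), and were not called. The call in WM against Sham was also lost without Sham 23 (0.41, adjusted p = 0.0502, edgeR) and without the 3 libraries with acinar transcripts (0.40, adjusted p = 0.0624, edgeR).

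Lcat, which esterifies HDL cholesterol in plasma, ran from 133 to 354 CPM in RYGB livers (median 186), from 48.1 to 479 CPM in WM livers (median 160) and from 32.3 to 265 CPM in Sham livers (median 149). The groups overlapped throughout, and the log2 differences of 0.54 ± 0.38 in RYGB against Sham and 0.39 ± 0.38 in WM against Sham did not pass (adjusted p = 0.313 and 0.454, edgeR). RYGB differed from WM by 0.15 ± 0.37 (adjusted p = 0.949, edgeR).

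Pltp, the phospholipid transfer gene, ran from 3.48 to 36.2 CPM in RYGB livers (median 12.7), from 1.69 to 29.4 CPM in WM livers (median 6.71) and from 3.02 to 40.0 CPM in Sham livers (median 12.3). The groups overlapped, with 7 of 8 WM livers below the Sham median. The log2 differences of 0.05 ± 0.50 in RYGB against Sham, -0.81 ± 0.51 in WM against Sham and 0.86 ± 0.51 in RYGB against WM did not pass (adjusted p = 0.960, 0.229 and 0.574, edgeR). Without WM 25, whose 29.4 CPM was the highest of its group, the difference of WM from Sham was -1.43 and passed (adjusted p = 0.0228, edgeR). It also passed in limma-voom (-1.28, adjusted p = 0.0249) and after correction for GC content and length (-1.05, adjusted p = 0.0473, edgeR). The last 1000 bases of Pltp overlap an exon of Ctsa, the cathepsin A gene, on the opposite strand in GENCODE M21. No source used here gives the strand setting of the counting, so reads of both genes may not have been told apart. Ctsa was at 71.6 ± 14.5 CPM in RYGB, 60.5 ± 24.6 CPM in WM and 64.2 ± 11.8 CPM in Sham livers (SD, n = 8 each) with no call in any comparison.

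Soat2, the intracellular cholesterol esterification gene, ran from 12.1 to 28.6 CPM in RYGB livers (median 16.4), from 15.6 to 31.0 CPM in WM livers (median 25.4) and from 11.9 to 19.95 CPM in Sham livers (median 15.95). In 7 of 8 WM livers it lay above the Sham median, and RYGB and Sham livers overlapped over nearly the whole Sham range. Soat2 rose by 0.61 ± 0.19 on the log2 scale in WM against Sham (adjusted p = 0.0143, edgeR). The differences of RYGB from Sham, 0.18 ± 0.19, and of RYGB from WM, -0.44 ± 0.19, did not pass (adjusted p = 0.535 and 0.356, edgeR). The rise was not called with library totals (0.28, adjusted p = 0.221, edgeR) or after correction for GC content and length (0.42, adjusted p = 0.057, edgeR).

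The GC content of the members differs, from 47.5% of the Abca1 transcript and 48.5% of Scarb1 to 56.8% of Nr1h3 and 57.3% of Pltp, and the slope of a library on GC content moved with several of them within groups. Pltp followed the slope in Sham livers with a Pearson r of 0.971 and a Spearman rho of 1 (exact permutation, adjusted p = 0.000744 and 0.00149 over 30 relations), and r was 0.962 without the 2 farthest libraries. Lcat had r of 0.859 in RYGB, 0.860 in WM and 0.876 in Sham livers (exact permutation, adjusted p = 0.0470, 0.0300 and 0.0254), with rho of 0.595, 0.857 and 0.976 in these groups and r of 0.812, 0.546 and 0.905 without the 2 farthest libraries. Nr1h3 had r of 0.527 in RYGB, 0.857 in WM and 0.910 in Sham livers, with rho of 0.714, 0.905 and 0.952 (exact permutation, adjusted p of r = 0.301, 0.0254 and 0.0123, of rho = 0.173, 0.0228 and 0.00685). Without the 2 farthest libraries its r was 0.596, 0.879 and 0.937. Abcg8 in Sham livers had r of 0.941 and rho of 0.976 (exact permutation, adjusted p = 0.00484 and 0.00397), and Soat2 in RYGB livers had r of 0.954 and rho of 0.952 (exact permutation, adjusted p = 0.00521 and 0.00685). Their r without the 2 farthest libraries was 0.779 and 0.874. Abcg8 in RYGB livers passed for r, 0.835, but not for rho, 0.524 (exact permutation, adjusted p = 0.0404 and 0.369), and r was 0.572 without the 2 farthest libraries. Pltp in WM livers likewise passed for r, 0.892, but not for rho, 0.762 (exact permutation, adjusted p = 0.0254 and 0.123), and r was 0.438 without the 2 farthest libraries. Of the rho of Lcat, that in RYGB livers did not pass either (exact permutation, adjusted p = 0.305, against 0.0459 in WM and 0.00397 in Sham livers). No relation of Abca1, Abcg1, Abcg5, Scarb1 or Lipc to the slope passed adjustment. Without the 2 farthest libraries, r of Abcg5 was 0.113 in RYGB, -0.801 in WM and -0.911 in Sham livers, against 0.454, -0.214 and -0.255 with all 8. That of Abca1 was -0.814, -0.417 and -0.398 without them, against -0.271, -0.697 and -0.169 with all 8. The values without these libraries were not tested. These relations were computed after the high and low libraries of Lcat and Pltp had been seen. After correction of each library for GC content and length, Nr1h3 was still called higher in RYGB and in WM against Sham and Abcg5 lower in RYGB against WM (adjusted p = 0.0171, edgeR).

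**Figure D4:**
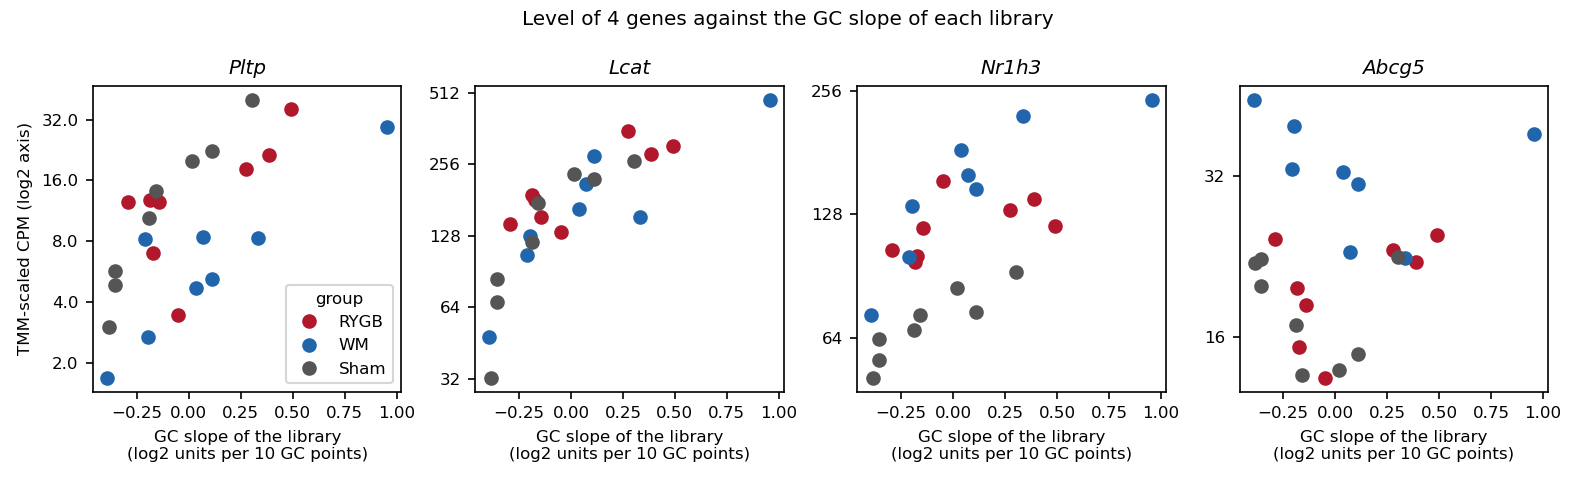
Level of Pltp, Lcat, Nr1h3 and Abcg5 in CPM, on a log2 axis, in each library against the slope of that library on transcript GC content, in log2 units per 10 GC points, with the groups RYGB, WM and Sham in separate colours. WM 25 lies farthest to the right at 0.956, and Pltp in Sham livers rises with the slope (r of 0.971).

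The genes around LXRα were described by lists, with counts beside the shares of all genes given earlier. Of 11 partners and co-regulators of LXR, 0 rose and 0 fell in RYGB against Sham, and 1 rose (Rxra, the partner receptor of LXRα) and 2 fell in WM against Sham. The co-regulators that fell were Ncor1, a corepressor, at 142 ± 36.1 CPM in WM and 224 ± 46.1 CPM in Sham livers (log2 fold change -0.66, adjusted p = 0.00814, edgeR, against -0.32 and 0.200 after correction for GC content and length), and Ppargc1a, a coactivator of mitochondrial genes, at 7.66 ± 2.74 CPM in WM and 15.5 ± 3.75 CPM in Sham livers (adjusted p = 0.000422, edgeR). Of 15 LXR targets outside the members, 2 rose and 1 fell in RYGB against Sham, and 2 rose and 3 fell in WM against Sham. Apoc1, an apolipoprotein of HDL and VLDL, was at 6904 ± 1107 CPM in RYGB, 8140 ± 1627 CPM in WM and 3502 ± 776 CPM in Sham livers, with no overlap of either group with Sham. Scd1, which desaturates fatty acids, was at 2376 ± 1018 CPM in RYGB, 1773 ± 1228 CPM in WM and 7155 ± 1208 CPM in Sham livers, also with no overlap. These counts lie near the shares of all genes called, and Cd5l, which rose in both against Sham, is also a marker of the Kupffer cell list. Lpl, lipoprotein lipase, was at 52.8 ± 21.8 CPM in RYGB, 23.4 ± 7.10 CPM in WM and 46.1 ± 26.5 CPM in Sham livers. It was called lower in WM against Sham (log2 fold change -0.98, adjusted p = 0.0104, edgeR). In RYGB against Sham it was not called (0.20, adjusted p = 0.662, edgeR). Lpl was the 1 target called in RYGB against WM (log2 fold change 1.18 ± 0.29, adjusted p = 0.0293, edgeR). That call was lost with library totals (1.15, adjusted p = 0.0826, edgeR), in limma-voom (0.99, adjusted p = 0.0660) and without any 1 of WM 1, WM 27, WM 30, RYGB 15, RYGB 22 and RYGB 28 (0.99 to 1.17, adjusted p = 0.0525 to 0.0830, edgeR).

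Of 21 tested genes of HDL particle proteins and their remodelling, 5 rose and 5 fell in RYGB against Sham and likewise 5 rose and 5 fell in WM against Sham, with 0 called in RYGB against WM. Apom, which carries sphingosine phosphate on HDL, was at 199 ± 71.5 CPM in RYGB, 284 ± 156 CPM in WM and 78.0 ± 28.9 CPM in Sham livers. Pcolce2, an enhancer of procollagen cleavage that also assists the processing of apolipoprotein A-I, rose to 8.01 ± 3.82 CPM in RYGB and 8.81 ± 3.17 CPM in WM, against 2.00 ± 1.08 CPM in Sham livers. Apoa4, a lipid-responsive apolipoprotein, fell to 199 ± 80.3 CPM in RYGB and 292 ± 133 CPM in WM, against 3007 ± 1121 CPM in Sham livers, with no overlap (log2 fold changes -3.92 ± 0.31 and -3.36 ± 0.30).

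Of 9 tested docking and uptake partners of HDL, 3 rose and 1 fell in RYGB against Sham, and 4 rose and 1 fell in WM against Sham. Cd36, a scavenger receptor and fatty acid transporter, was at 64.7 ± 8.83 CPM in RYGB, 30.9 ± 15.8 CPM in WM and 177 ± 26.9 CPM in Sham livers. It fell in both against Sham and was higher in RYGB than in WM livers by 1.07 ± 0.21 on the log2 scale (adjusted p = 0.00542, edgeR). Pdzk1ip1, a binding partner of the SR-BI adaptor PDZK1, was at 7.37 ± 2.54 CPM in RYGB, 4.09 ± 2.87 CPM in WM and 2.32 ± 1.06 CPM in Sham livers, and passed in RYGB against Sham (adjusted p = 0.00259, edgeR). Stab1, a scavenger receptor of sinusoidal endothelium, was at 11.9 ± 3.14 CPM in RYGB, 16.8 ± 3.47 CPM in WM and 8.08 ± 3.37 CPM in Sham livers, and passed in WM against Sham (adjusted p = 0.000473, edgeR). Stab1 is itself on the endothelial marker list, as is Stab2, another of the 4 partners that rose in WM against Sham. The endothelial markers summed to 123 to 254 CPM in RYGB, 191 to 337 CPM in WM and 52.7 to 247 CPM in Sham livers. Of the 9 endothelial markers, 3 were called higher in RYGB and 7 in WM against Sham, with 0 lower in either.

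Of 19 tested genes of sterol esterification, hydrolysis and trafficking, 2 rose and 3 fell in RYGB against Sham, and 3 rose and 4 fell in WM against Sham. Nceh1, a cholesteryl ester hydrolase, was at 22.1 ± 4.76 CPM in RYGB, 34.3 ± 6.79 CPM in WM and 53.0 ± 13.6 CPM in Sham livers, and fell in both against Sham. Lipa, the lysosomal acid lipase, was at 379 ± 67.1 CPM in RYGB, 219 ± 37.0 CPM in WM and 472 ± 102 CPM in Sham livers. It fell in WM against Sham with no overlap (adjusted p = 5.1e-06, edgeR) and was higher in RYGB than in WM by 0.80 ± 0.16 on the log2 scale (adjusted p = 0.0041, edgeR). After correction for GC content and length the difference was 0.71 and was not called (adjusted p = 0.0534, edgeR). Ces1f, a carboxylesterase, rose to 182 ± 21.5 CPM in RYGB and 190 ± 23.1 CPM in WM, against 128 ± 27.7 CPM in Sham livers. The log2 fold changes of Ces1f were 0.51 in RYGB and 0.57 in WM against Sham. Neither call held with library totals (0.16 and 0.25, adjusted p = 0.474 and 0.224, edgeR), nor that in RYGB after the correction (0.36, adjusted p = 0.0557, edgeR).

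Of 8 genes of canalicular lipid and bile salt export, which act beside ABCG5 and ABCG8 or bring bile salts into the cell, 4 rose and 2 fell in RYGB against Sham, and 2 rose and 2 fell in WM against Sham. Abcb11, the bile salt export pump, was at 461 ± 73.2 CPM in RYGB, 245 ± 49.3 CPM in WM and 235 ± 30.9 CPM in Sham livers. RYGB livers did not overlap either group, and Abcb11 was higher in RYGB than in WM livers by 0.91 ± 0.15 on the log2 scale (adjusted p = 0.000551, edgeR), whereas Abcg5 was lower. Abcb4, which moves phosphatidylcholine into bile, fell to 477 ± 130 CPM in RYGB and 384 ± 102 CPM in WM, against 764 ± 177 CPM in Sham livers. Slc10a1, the bile salt uptake carrier of the blood-facing membrane, rose to 241 ± 55.9 CPM in RYGB and 328 ± 64.9 CPM in WM, against 112 ± 31.3 CPM in Sham livers.

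Among 10 tested transporters of the ABCA and ABCG families outside the members, 1 rose and 1 fell in RYGB against Sham, and 1 rose and 3 fell in WM against Sham. Abca8a rose to 70.6 ± 19.8 CPM in RYGB and 78.7 ± 22.8 CPM in WM, against 24.5 ± 4.57 CPM in Sham livers. Abca5 fell to 2.69 ± 0.927 CPM in RYGB and 2.75 ± 0.945 CPM in WM, against 6.41 ± 2.49 CPM in Sham livers. After the correction, Abca5 in WM against Sham was not called (-0.63, adjusted p = 0.0600, edgeR). Of 14 tested nuclear receptors and factors of sterol export promoters, 4 rose and 2 fell in RYGB against Sham, and 2 rose and 3 fell in WM against Sham. Ppara, the receptor that drives fatty acid oxidation genes, fell to 166 ± 77.6 CPM in RYGB and 226 ± 112 CPM in WM, against 393 ± 125 CPM in Sham livers. Thrb, a thyroid hormone receptor, fell to 35.0 ± 6.75 CPM in RYGB and 38.9 ± 13.7 CPM in WM, against 58.0 ± 11.6 CPM in Sham livers. Its call in RYGB was lost after the correction (-0.42, adjusted p = 0.0672, edgeR), and its call in WM was not examined there. Nr1i3, the receptor CAR, rose to 86.2 ± 16.1 CPM in RYGB and 100.1 ± 19.3 CPM in WM, against 58.5 ± 13.7 CPM in Sham livers. Esrra, an orphan receptor of mitochondrial genes, rose to 11.5 ± 3.73 CPM in RYGB and 17.4 ± 7.63 CPM in WM, against 6.81 ± 0.894 CPM in Sham livers.

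The genes whose log2 CPM ran most alike over the 24 libraries were found for the 5 called members among 8134 genes with a mean of at least 5 CPM, as a description, since the 24 libraries share their groups and their scaling. Nr1h3 was most like Ccs (r of 0.959) and Exosc5 (0.958), and Lipc was most like Fga (0.855) and C1ra (0.837). Abcg5 was most like Bhlhe41 (0.843) and Entpd8 (0.836), whereas Abcg8 was most like Fbxo31 (0.913) and Dgat2 (0.868). Bhlhe41, a transcriptional repressor, was at 2.42 ± 2.72 CPM in RYGB, 11.9 ± 4.06 CPM in WM and 1.67 ± 1.06 CPM in Sham livers, so that, as with Abcg5, WM livers were highest. Soat2 was most like Vwce (0.833) and Shroom1 (0.808).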

How the data were processed

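Liver messenger RNA was measured in 24 libraries, 8 for each of RYGB, WM and Sham, grouped by the labels. Per the labels' protocols, frozen liver was extracted with Trizol and RNeasy, and QuantSeq 3′ libraries were read for 50 bp from 1 end. The authors deposited raw whole-number counts of reads per gene, and a normalized signal in which each count is divided by 1 size factor per library, which was recomputed to within 5e-15 in relative terms. R 4.1.2 and DESeq2 1.34 were used, per the submitters' processing notes. The sources used here do not give the genome build, aligner, counting program or strand setting. The deposited table named 13343 genes and GENCODE M21 (GRCm38) a further 1616 by Ensembl ID.

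The tests ran on raw counts with edgeR 4.0.16 under R 4.3.3. Steps were filterByExpr (13121 genes), TMM scaling, 1 quasi-likelihood fit to all 24 libraries without covariates (common BCV, the biological coefficient of variation, 0.398), F-tests of 3 differences and Benjamini-Hochberg adjustment over all tested genes, with calls under 0.05. Standard errors are the absolute log2 fold change over the square root of F. Library totals were 14002193 to 19958019 in RYGB, 14208021 to 22766612 in WM and 13659647 to 17391377 in Sham, and precision is given by the spread over 8 libraries. For libraries of the same group, chi-square over its degrees of freedom was 26.4 to 578, and none was taken as a duplicate. Ratios and correlations used log2 of CPM plus 1 and exact permutation. Library slopes came from regression of log2 deviations on transcript GC content and length. The rule for named genes took all 10 members, up to 2 called genes with the smallest p from each list and comparison, and the 2 genes most like each called member. The members and lists were chosen with earlier results of these data known. Alternatives were DESeq2 1.42.0, limma 3.58.1 (voom, and trend on the deposited normalized values), RLE or library-total scaling, other low-count filters, the compared groups alone, smooth GC and length correction (mgcv 1.9.3), and leaving out libraries. For named genes of the lists, alternatives were followed only in the comparisons from which the genes were taken. The procedure was tested on simulated data. Promoter windows are from RefSeq on GRCm38.p6.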

Additional observations from a re-analysis of the deposited data

Results flagged for a closer look

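Within each group of 8 livers, the highest and lowest values of the 10 members and of the ratio of Abcg5 to Abcg8 were compared with their nearest neighbour, in 33 groups of values. Chance marks about 1 in 20 groups of independent, normally distributed values. The members were compared as CPM without a log and share their libraries, so that rate need not hold here. In all, 4 groups were marked, all in WM 25. Abcg8 in WM 25 was at 96.5 CPM, with the next WM liver at 42.7 CPM. Scarb1 in WM 25 was at 349 CPM, with the next WM liver at 126 CPM. Pltp in WM 25 was at 29.4 CPM, with the next WM liver at 8.39 CPM. Abcg1 in WM 25 was at 1.21 CPM, the lowest of its group, with the next WM liver at 3.21 CPM. WM 25 also had the steepest slope on GC content of the 24 libraries, at 0.956 log2 units per 10 GC points, and its part in these values was not tested.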

How the results depend on the processing

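No paired analysis was possible because the groups share no sample numbers. Nr1h3 against Sham and Abcg5 in WM against Sham kept their calls under every alternative run, some with smaller differences. With library totals, Nr1h3 was at 0.44 in RYGB and 0.81 in WM against Sham (adjusted p = 0.047 and 0.00066, edgeR). Abcg5 in WM against Sham was at 0.55 there (adjusted p = 0.0268, edgeR). After GC and length correction these log2 differences were 0.62, 0.91 and 0.68 in the same order. Counts of members changed as follows. In RYGB against Sham, 1 was higher with library totals and 1 after GC and length correction. In WM against Sham, 2 were higher with library totals, 3 after the correction, 4 without the acinar libraries and 3 without these and WM 25, and 1 (Pltp) was lower in limma-voom, after the correction and without the acinar libraries and WM 25. In RYGB against WM, 0 were lower with the compared groups alone. Leaving out single libraries gave 4 to 5 higher and 0 to 1 lower in WM against Sham and 0 to 1 lower in RYGB against WM. Over all genes, calls were 3109 in RYGB against Sham and 5018 in limma-voom, and 196 in RYGB against WM, with 361 in DESeq2, 334 after the correction and 121 with the compared groups alone. Log2 differences changed sign, none of them called, in RYGB against Sham for Abcg5 (-0.20), Pltp (-0.25) and Soat2 (-0.17) with library totals, for Pltp (-0.046) in limma-voom, Abca1 (0.24), Abcg5 (-0.024), Pltp (-0.042) and Soat2 (-0.031) after the correction. Without the acinar libraries, with or without WM 25, they did so for Abcg8 (-0.077), Pltp (-0.57) and Soat2 (-0.10). In WM against Sham they did so for Scarb1 (-0.14) with library totals, Scarb1 (-0.10) and Lcat (-0.039) in limma-voom, Abca1 (0.13) and Lcat (-0.075) after the correction, and Scarb1 (-0.11) and Lcat (-0.053) without the acinar libraries and WM 25. In RYGB against WM they did so for Abcg1 (-0.12) in limma-voom and Lcat (-0.026) without the acinar libraries. Leaving out single libraries gave -0.26 to 0.46 for Pltp and -0.36 to 0.12 for Abcg1 in RYGB against Sham, -0.11 to 0.32 for Scarb1 and -1.43 to -0.41 for Pltp in WM against Sham, and -0.070 to 0.23 for Abcg1 in RYGB against WM. The difference in the ratio of Abcg5 to Abcg8 was 0.15 in RYGB against Sham, 0.056 in WM against Sham and 0.092 in RYGB against WM without the acinar libraries, 0.15 and 0.20 for the Sham comparisons without WM 25 as well, and -0.23 to 0.022, -0.13 to 0.14 and -0.25 to 0.017 in the same order without single libraries. The cause of these changes was not tested. Library totals, the GC and length correction and leaving out the acinar libraries follow earlier results, and leaving out WM 25 with them, the corrected correlations and the GC slopes were chosen after seeing the data. Depth limits Abcg1 most.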
